A study of Rattus norvegicus with 12 samples.

Results

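The transcripts described here encode the EGF family in the rat cervix, with the 6 ligands Areg, Ereg, Hbegf, Btc, Tgfa and Egf and the 3 receptors Egfr, Erbb2 and Erbb3. They were taken as every array probe whose gene name in the scanner output was one of these symbols. This gave 13 probes for 9 of the 26612 gene names on the array. Cells were dispersed with collagenase from the cervix of 12 adult female Sprague Dawley rats, and their RNA was hybridised to 1-colour Agilent arrays, with 1 array for each rat. The 4 groups of 3 rats were whole cervix cells from nonpregnant rats in proestrus (NP whole, rats 8, 9 and 10), whole cervix cells from pregnant rats on day 21 after breeding (D21 whole, rats 5, 6 and 7), and cells of other rats from which macrophages (Mφs) had been removed (NP depleted, rats 5, 6 and 7, and D21 depleted, rats 1, 2 and 4). All rats were perfused with saline before the cervix was taken. Mφs were bound by the ED1 antibody and drawn off with magnetic beads, and the whole cell suspensions were frozen without these incubations. Removal of Mφs and the added handling therefore cannot be told apart in any comparison of whole with depleted cells. Most depleted arrays were also on slides and scan days that held no whole array, so slide and scan day are largely confounded with depletion.

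Ligands of the EGF family are made as membrane-anchored precursors, are cut free by metalloproteases of the ADAM family and bind receptor tyrosine kinases that work in pairs. Egfr binds Egf, Tgfa, Areg, Btc, Hbegf and Ereg, Erbb2 has no known ligand and serves as the preferred partner of the others, and Erbb3 binds neuregulins and has little kinase activity of its own. In epithelia of the reproductive tract the family is known for its part in cell growth and in the repair of the cell layer.

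A level is given below as the log2 of the probe's intensity over the 75th percentile of all probes on that array, so that 0 is the level of that percentile and a step of 1 is a change of 2-fold. A probe was well above background where the scanner software rated it so, and a gene was tested where every array of one or both of the groups being compared met this rating. Following the criteria of the study, a change was called where the unadjusted p of limma was below 0.01 and the change was at least 2-fold. Benjamini-Hochberg adjusted p-values over all genes tested are given beside the calls. Levels of different probes cannot be compared with each other, since probes differ in how strongly they bind.

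The regions just upstream of Areg, Hbegf and Btc are shown because Areg and Hbegf were called together in both comparisons of whole with depleted cells and Btc was called in the opposite direction in D21 rats. Each runs from 250 bases before to 50 bases after the start of the gene, on the strand of the gene, as given by RefSeq in the GRCr8 build. The windows are chr14:17265592-17265891 for Areg (minus strand), chr18:28390171-28390470 for Hbegf (minus strand) and chr14:16992418-16992717 for Btc (plus strand). Capitals mark TGACGTCA and TATAAA in Areg and TGACG in Hbegf.
Areg: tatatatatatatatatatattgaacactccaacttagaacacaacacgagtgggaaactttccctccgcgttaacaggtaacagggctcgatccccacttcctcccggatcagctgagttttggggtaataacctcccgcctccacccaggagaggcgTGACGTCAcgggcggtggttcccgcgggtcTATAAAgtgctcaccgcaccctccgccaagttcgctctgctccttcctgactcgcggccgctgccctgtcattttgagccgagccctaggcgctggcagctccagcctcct
Hbegf: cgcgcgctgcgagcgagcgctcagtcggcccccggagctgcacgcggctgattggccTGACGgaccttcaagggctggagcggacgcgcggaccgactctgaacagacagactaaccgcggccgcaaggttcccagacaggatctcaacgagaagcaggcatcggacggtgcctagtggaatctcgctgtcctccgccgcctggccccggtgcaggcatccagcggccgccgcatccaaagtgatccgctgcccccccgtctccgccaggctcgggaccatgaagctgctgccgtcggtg
Btc: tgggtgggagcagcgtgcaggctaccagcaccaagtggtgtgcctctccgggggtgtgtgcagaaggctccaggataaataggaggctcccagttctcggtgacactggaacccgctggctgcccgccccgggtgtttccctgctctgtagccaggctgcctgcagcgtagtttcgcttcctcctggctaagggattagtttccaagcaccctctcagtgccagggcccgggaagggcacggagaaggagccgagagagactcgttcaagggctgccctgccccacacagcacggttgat

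Both strands of these windows were searched for TGACGTCA (the palindromic cyclic AMP response element), TGACG as its shorter form, the AP-1 element TGANTCA, the GC box GGGCGG and the TATA box, TATAAA. The Areg window held TGACGTCA starting 91 bases and TATAAA starting 61 bases before the start, with GGGCGG between them at 82 bases, and the Hbegf window held TGACG starting 193 bases before it. TGACG lies within TGACGTCA, so the Areg element counts for both, once on each strand. Of 27457 promoter windows of this length, 1.91% held TGACGTCA, 22.0% held TGACG, 14.3% held TATAAA, 7.33% held TGANTCA and 34.9% held GGGCGG. The Btc window held GGGCGG as its only match, and the same letters were found in those of Areg, Tgfa, Egfr and Erbb2. Such a match is a run of letters and is no measurement of binding. The windows of 7 of the 9 genes were in the table used, all but Ereg and Erbb3.

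The genes of Btc, Areg and Ereg lie near each other, since their probes map to chr14:18233596-18233655, chr14:18466438-18466497 and chr14:18521343-18522341 in the rn4 build used by the array files, the last split over 999 bases. Hbegf was read at chr18:29143627-29143686, Egfr at chr14:97788051-97788110 and Erbb3 at chr7:1858095-1858154. The brightest probes of Tgfa, Egf and Erbb2 lay at chr4:120437505-120437564, chr2:227123727-227123786 and chr10:87242482-87242541. Of the 9 genes, 3 had more than 1 probe, with 2 for Tgfa, 2 for Egf and 3 for Erbb2, and the brightest probe of a gene was used. The dimmer probes of Tgfa (chr4:120432206-120432265) and Erbb2 (chr10:87238370-87238429) are shown with those of Btc and Ereg. In whole against depleted cells of D21 rats the first pair did not follow the brightest probe of the same gene. The log2 difference was 0.23 against -0.51 for Tgfa and 0.22 against -1.23 for Erbb2. The second pair was not well above background in any rat of some groups. No letter is singled out in them.
Btc probe: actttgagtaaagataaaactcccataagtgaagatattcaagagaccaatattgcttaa
Ereg probe: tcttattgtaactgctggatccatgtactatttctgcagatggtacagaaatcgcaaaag
Tgfa probe 2: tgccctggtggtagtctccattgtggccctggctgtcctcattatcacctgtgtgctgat
Erbb2 probe 3: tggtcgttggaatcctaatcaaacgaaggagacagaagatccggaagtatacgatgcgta

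There were 4 slides and 3 scan days for the 12 arrays. The 75th percentile of an array ranged from 290 to 1171 intensity units, and 44.9% to 61.7% of probes were well above background. A pair of arrays stood apart from its groups. NP depleted rat 7 and D21 depleted rat 4, the only depleted arrays on slide 3 and the only ones scanned on the day of all whole arrays, correlated with each other at r = 0.960 over genes well above background on every array, above their best correlations within their own groups (0.943 and 0.924). Of the 40 calls made for the pathway genes described below in comparisons that use depleted cells, all 40 were also made, in the same direction, without these 2 arrays, where 70 were made in all. Not all calls of the family members held without them. Those of Areg in D21 rats (-1.75 on the log2 scale, limma adjusted p = 0.056) and Tgfa in NP rats (-1.03, limma adjusted p = 0.095) were lost, and the others were kept. However, no depleted array then shares a slide or scan day with a whole array. In those fits depletion cannot be told apart from slide and scan day in comparisons of whole with depleted cells. Shares of all genes given below are those of the reported fit. Counts of calls without these 2 arrays have no such share beside them, so a rise in them is not read as particular to a list. Values without these 2 arrays are given below for some calls only, and the sizes of other named calls changed too. Dusp5 in D21 rats went from 12.2-fold to 16.3-fold and Sos1 between depleted cells from 2.33-fold to 3.47-fold. Fos in D21 rats fell from 4.38-fold to 3.55-fold. Markers moved with depletion as well. Of 12 macrophage markers, 9 were higher in whole than in depleted cells of D21 rats and 9 of 11 tested were in NP rats, but so were 5 and 8 of 8 smooth muscle markers and 2 and 7 of 8 fibroblast markers. Of the mast cell markers tested, 4 of 5 were higher in whole cells of D21 rats and 3 of 4 in those of NP rats, where Kit was lower, and of 4 neutrophil markers Csf3r was higher in both. Of all genes tested, 10.0% were higher and 7.72% lower in whole cells of D21 rats, and 13.6% and 10.8% in those of NP rats. The summed intensity of the macrophage list, in multiples of the 75th percentile, was 61.7 to 64.5 in D21 whole and 48.4 to 50.1 in NP whole cells, and 10.2 to 14.3 and 4.58 to 14.7 in D21 and NP depleted cells. Of the macrophage markers, Adgre1, Mrc1 and Fcgr3a were not well above background in any depleted sample. C1qb, Cd14 and Cd68 were well above background in all depleted samples, and the other macrophage markers in some of them. Cd14 and Cd68, which encodes the antigen of ED1, were not called in either comparison. Cd14 had the highest mean level of the list in depleted cells, at 2.73 in NP and 2.90 in D21 rats, so it weighs most in the sums there. Of 10 epithelial markers, 4 were lower in whole than in depleted cells of D21 rats and 6 were in NP rats. Their summed intensity was 262 to 425 in D21 whole, 130 to 410 in NP whole, 543 to 724 in D21 depleted and 460 to 1015 in NP depleted cells. The brightest probes weigh most in such a sum, in NP depleted cells Krt14 and Krt5, with mean levels of 8.27 and 7.93. The part of the epithelial markers in the differences between whole and depleted cells below was not tested. Fewer cells of a type and less RNA in each cell cannot be told apart in such suspensions.

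**Figure D1:**
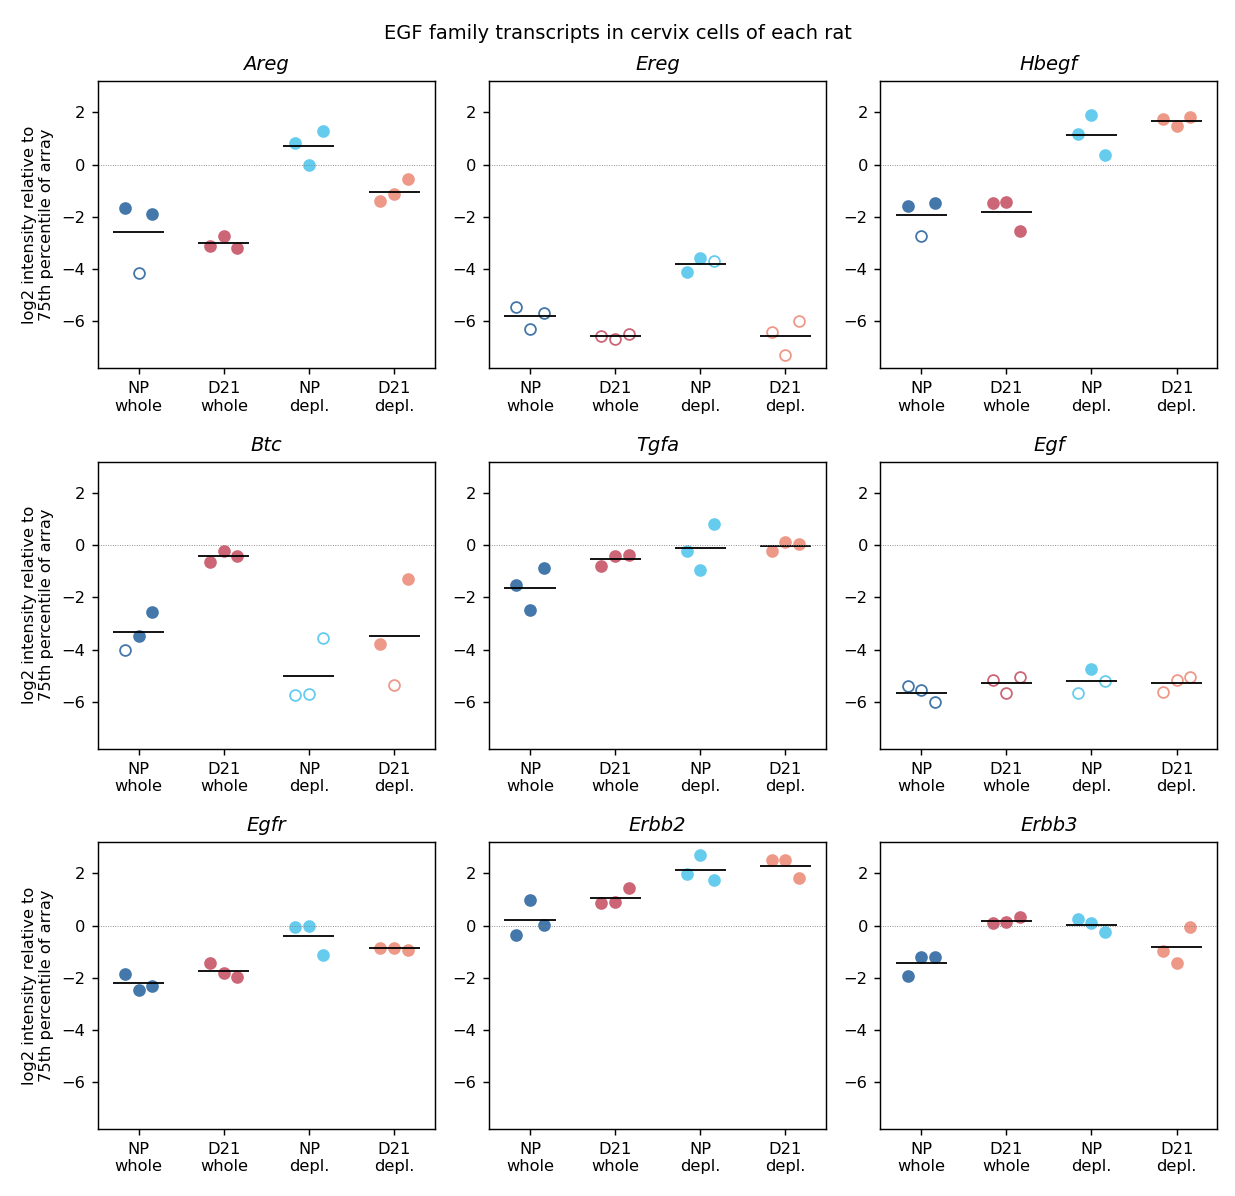
Levels of the 9 EGF family transcripts in each of 12 rats, as log2 intensity over the 75th percentile of its array. Each point is 1 rat, filled where the probe was well above background and open where it was not, and lines are means of 3 rats. Hbegf and Areg sat higher in both depleted groups than in both whole groups, Btc was highest in D21 whole cells, and Erbb3 was low in NP whole cells.

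Hbegf, the heparin-binding ligand of Egfr and Erbb4, was the ligand with the steadiest difference between whole and depleted cells. In whole cells its level was -1.59, -2.74 and -1.47 in NP rats 8, 9 and 10, and -1.49, -1.42 and -2.53 in D21 rats 5, 6 and 7. In depleted cells it was 1.18, 1.90 and 0.36 in NP rats 5, 6 and 7, and 1.75, 1.49 and 1.81 in D21 rats 1, 2 and 4. Every depleted sample lay above every whole sample, and the whole sample of NP rat 9 was not well above background. In D21 rats the level in whole cells was lower by 3.50 on the log2 scale than in depleted cells, or 11.3-fold (95% confidence interval 5.64 to 22.6, limma adjusted p = 0.00073). In NP rats it was 8.43-fold lower in whole cells (4.23 to 16.8, limma adjusted p = 0.00042). Pregnancy made a difference of 0.12 ± 0.46 (SE) in whole cells, with a 95% interval of -0.88 to 1.12, and of 0.54 in depleted cells (-0.45 to 1.53), neither of them called.

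Areg, which encodes amphiregulin, was also higher in depleted cells. Its level in whole cells was -1.68, -4.15 and -1.91 in NP rats 8, 9 and 10, with rat 9 not well above background, and -3.13, -2.73 and -3.19 in D21 rats 5, 6 and 7. In depleted cells it was 0.84, -0.01 and 1.29 in NP rats 5, 6 and 7, and -1.39, -1.13 and -0.56 in D21 rats 1, 2 and 4. The depleted groups did not overlap with the whole groups, and all NP depleted samples lay above all D21 depleted samples. Areg was 9.75-fold lower in whole than in depleted cells of NP rats (4.07 to 23.4, limma adjusted p = 0.0013) and 3.96-fold lower in those of D21 rats (1.65 to 9.51, limma adjusted p = 0.033). The call in D21 rats was lost without D21 whole rat 5 or 7 or D21 depleted rat 2 or 4, with log2 differences between -2.04 and -1.75. It was also lost with normexp background correction (-0.96) and with slide as a block (-3.55). In the comparison of D21 with NP depleted cells the difference of -1.73 ± 0.57 (SE) missed the call, with a 95% interval of -2.99 to -0.48 and a limma adjusted p of 0.12, and it passed in 5 of 21 alternatives. These were the fit on the arrays compared only, the detected-probe percentile (-1.90), array weights (-2.01), the authors' normalized values and the fit without NP depleted rat 6 (-2.09).

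Ereg, which encodes epiregulin, was well above background on 2 arrays only. In NP depleted cells its level was -4.11 and -3.57 in rats 5 and 6, both well above background, and -3.71 in rat 7, which was not. On the other 9 arrays it lay between -7.27 and -5.45 with none well above background. Ereg was thus not tested, and its level in NP depleted cells was at least 1.18-fold that in NP whole cells and at least 1.86-fold that in D21 depleted cells. These bounds set the mean of the bright group against the lowest signal rated above background on each array of the dim group.

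Btc, which encodes betacellulin, a ligand of Egfr and Erbb4, ran the other way. It was -4.02, -3.47 and -2.54 in NP whole rats 8, 9 and 10 and -0.64, -0.24 and -0.42 in D21 whole rats 5, 6 and 7, with no overlap. In depleted cells it was -5.75, -5.71 and -3.56 in NP rats 5, 6 and 7, none of them well above background, and -3.79, -5.34 and -1.31 in D21 rats 1, 2 and 4. NP whole rat 8 and D21 depleted rat 2 were not well above background either, and D21 depleted rat 4 lay far above the other D21 depleted samples. Btc was 7.52-fold higher in D21 than in NP whole cells (1.97 to 28.7, limma adjusted p = 0.078). That call was lost without NP whole rat 8 or 9 or without any of the 3 D21 whole rats, where the log2 difference lay between 2.57 and 3.01, and with normexp background correction (1.75). In total 9 of 19 alternatives lost this call.

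In D21 rats Btc was 8.27-fold higher in whole than in depleted cells (2.17 to 31.6, limma adjusted p = 0.032). The difference, 3.05 on the log2 scale, was 4.13 without D21 depleted rat 4, 2.12 and no longer called without rat 2, and 2.89 and no longer called without rat 1. It was also not called without any 1 of the D21 whole rats (2.95 to 3.15), and it went uncalled in 10 of 20 alternatives in total. On scan day 3 alone, the only day with both kinds of cells, it was 0.88, with D21 depleted rat 4 as the only depleted sample. With slide as a block it was 0.21 (limma adjusted p = 0.95) and with scan day as a block 1.41 (limma adjusted p = 0.15). In NP rats Btc was not tested, and its mean level in whole cells was at least 2.11-fold that in depleted cells, with 2 of 3 whole arrays well above background. These groups overlapped, with NP whole rat 8 at -4.02 and NP depleted rat 7 at -3.56. On slide 3 the NP difference was -0.19. Among depleted cells its mean level in D21 rats was at least 1.91-fold that in NP rats. This bound rested on D21 depleted rat 4 (-1.31), and the 2 depleted groups overlapped.

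Tgfa, which encodes transforming growth factor alpha, differed less. The brighter probe gave -1.52, -2.49 and -0.86 in NP whole rats 8, 9 and 10, and -0.81, -0.41 and -0.38 in D21 whole rats 5, 6 and 7. It gave -0.22, -0.97 and 0.80 in NP depleted rats 5, 6 and 7, and -0.21, 0.13 and 0.03 in D21 depleted rats 1, 2 and 4. The whole and depleted samples of NP rats overlapped, while the 2 whole groups did not. Tgfa was 2.82-fold lower in whole than in depleted cells of NP rats (1.40 to 5.67, limma adjusted p = 0.028), a call that was lost without NP whole rat 8 or 9 or NP depleted rat 5 or 7. In total 11 of 21 alternatives lost this call. Without the depleted arrays of slide 3 the log2 difference was -1.03 and no longer called. The second probe, shown above, gave a log2 difference of -0.27 there (-0.92 to 0.37) and was called in no comparison. The difference of 1.09 between D21 and NP whole cells was not called (0.08 to 2.10, limma adjusted p = 0.19). Egf was well above background only in NP depleted rat 6, with either of its 2 probes, and was not tested.

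**Figure D2:**
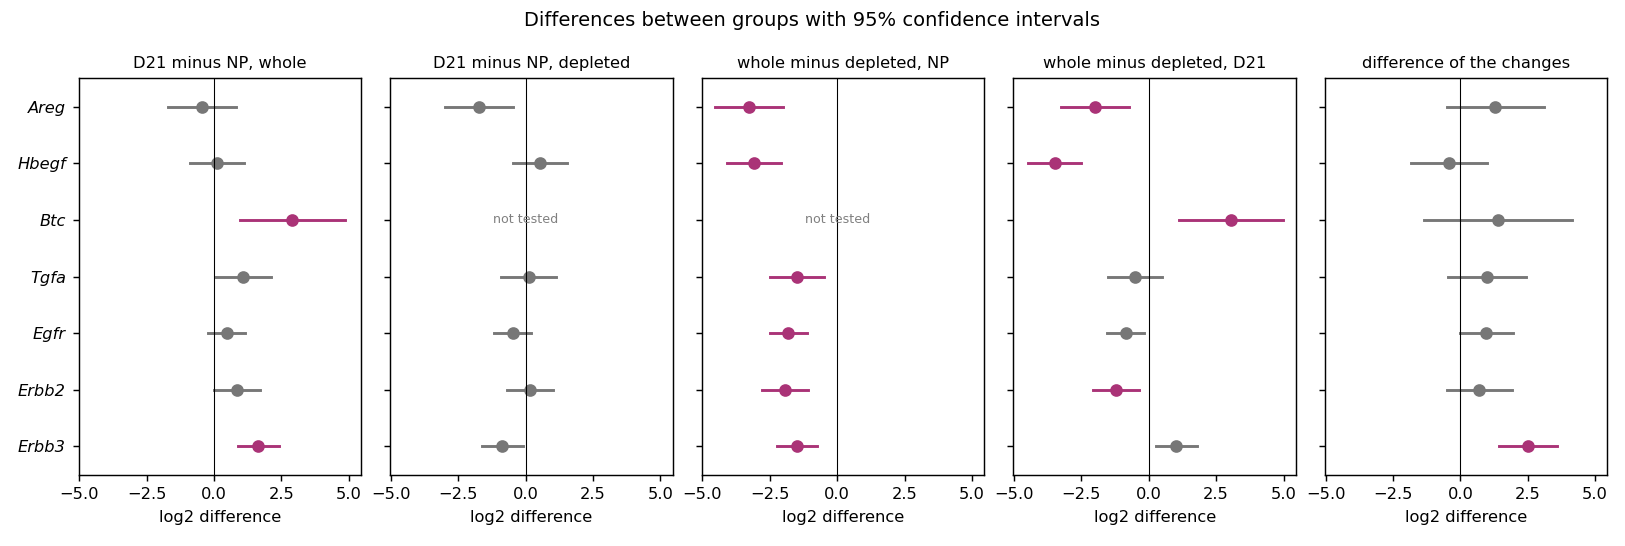
Log2 differences of the 7 tested transcripts in 5 comparisons, with 95% confidence intervals of limma as lines and called differences in purple. The last panel gives the whole minus depleted difference of D21 rats less that of NP rats. Hbegf and Areg were lower in whole cells in both panels of whole minus depleted, and Erbb3 had the only called difference of the changes, at 2.50.

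Among the receptors Erbb3 was the one with a called difference between D21 and NP whole cells. Its level was -1.95, -1.19 and -1.21 in NP whole rats 8, 9 and 10, and 0.10, 0.12 and 0.34 in D21 whole rats 5, 6 and 7. It was 0.24, 0.11 and -0.23 in NP depleted rats 5, 6 and 7, and -0.97, -1.44 and -0.06 in D21 depleted rats 1, 2 and 4. The NP whole samples were below all D21 whole and all NP depleted samples, and D21 depleted rat 4 lay above the other 2 rats of its group. Erbb3 was 3.11-fold higher in D21 than in NP whole cells (1.84 to 5.26, limma adjusted p = 0.023). With slide as a block the log2 difference fell from 1.64 to 1.40 and the call was lost (limma adjusted p = 0.27), with 1 NP sample on the slide of the D21 whole arrays. Among 10 epithelial markers 7 were higher in D21 than in NP whole cells, such as Cdh1 (2.78-fold) and Epcam (3.17-fold), beside 5.39% of all genes. The rest were not called, with log2 differences of 0.27 for Krt5, -0.46 for Tp63 and -1.30 for Krt14. The part of these markers in the difference of Erbb3 was not tested.

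The change of Erbb3 with depletion differed between D21 and NP rats. In NP rats it was 2.81-fold lower in whole than in depleted cells (1.67 to 4.74, limma adjusted p = 0.0067). In D21 rats it was 2.02-fold higher in whole cells, which missed the call (1.19 to 3.42, limma adjusted p = 0.055) and passed it without D21 depleted rat 4, with a log2 difference of 1.40. The difference between these changes was 2.50 ± 0.49 (SE), with a 95% interval of 1.43 to 3.58 and a limma adjusted p of 0.026. It was called in all 25 alternatives run, at 1.98 to 3.02, and was 3.02 without the depleted arrays of slide 3. Limma adjusted p-values in these alternatives ran from 0.0013 to 0.22. On scan day 3 alone, with 1 depleted sample in each kind of rat, whole minus depleted was 0.25 in D21 and -1.22 in NP rats. Erbb3 in D21 and NP depleted cells differed by -0.87, which was not called (-1.62 to -0.11, limma adjusted p = 0.18). The difference was -1.38 and called without the depleted arrays of slide 3. On slide 3 alone, with 1 rat in each group, it was 0.17, and on slide 1 it was -1.62. The means thus ran from NP whole through D21 depleted and NP depleted to D21 whole cells, and each pair of neighbours in this order overlapped.

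Egfr, the receptor of most of these ligands, was lowest in whole cells. Its level was -1.84, -2.46 and -2.32 in NP whole rats 8, 9 and 10, and -1.42, -1.80 and -1.95 in D21 whole rats 5, 6 and 7. It was -0.05, -0.02 and -1.12 in NP depleted rats 5, 6 and 7, and -0.86, -0.84 and -0.93 in D21 depleted rats 1, 2 and 4. All depleted samples lay above all whole samples, and NP depleted rat 7 was the lowest of them. Egfr was 3.50-fold lower in whole than in depleted cells of NP rats (2.18 to 5.63, limma adjusted p = 0.0012), a log2 difference of -1.81 that was -2.17 without the depleted arrays of slide 3. The difference of -0.85 in D21 rats was below 2-fold (-1.54 to -0.16, limma adjusted p = 0.071). Its change with depletion differed between D21 and NP rats by 0.96, which was not called (-0.02 to 1.94), and by 1.29, which was called, without the depleted arrays of slide 3.

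Erbb2, the shared partner of the other receptors, was also lower in whole than in depleted cells. The brightest of its 3 probes gave -0.35, 0.99 and 0.01 in NP whole rats 8, 9 and 10, and 0.85, 0.91 and 1.43 in D21 whole rats 5, 6 and 7. It gave 1.97, 2.72 and 1.73 in NP depleted rats 5, 6 and 7, and 2.53, 2.53 and 1.83 in D21 depleted rats 1, 2 and 4. The depleted samples were all above the whole samples, and the whole groups overlapped through NP rat 9. Erbb2 was 3.79-fold lower in whole than in depleted cells of NP rats (2.11 to 6.82, limma adjusted p = 0.0031), and the second probe gave a log2 difference of -2.06 against -1.92 for the first. In D21 rats it was 2.35-fold lower (1.30 to 4.23, limma adjusted p = 0.043), a call that was lost without D21 whole rat 5 or 6 or D21 depleted rat 1 or 2. In total 12 of 21 alternatives lost this call. Blocking on slide gave a log2 difference of -0.48 and blocking on scan day one of -0.79, neither called, in place of -1.23. There the second probe gave -1.04, short of a call (limma adjusted p = 0.072), and the dimmest probe 0.22 (-1.16 to 1.59). The dimmest probe was not well above background in any NP whole rat, with a level at least 1.24-fold higher in those of D21 rats. In NP depleted cells its level was at least 1.26-fold that in NP whole cells, the same direction as the brightest probe.

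Counted over the family, 2 of 7 tested transcripts were higher and none lower in D21 than in NP whole cells, where 5.39% of all 14056 genes tested were called higher and 3.10% lower. In whole against depleted cells of D21 rats, 1 of 7 was higher and 3 were lower, against 10.0% and 7.72% of 14256 genes. All 6 tested transcripts were lower in whole than in depleted cells of NP rats, against 10.8% of 13409 genes lower and 13.6% higher. The background filter shaped this count. Areg and Hbegf entered it through the NP depleted group only, with 2 of 3 NP whole arrays well above background. Btc, whose mean was higher in NP whole (-3.34) than in NP depleted cells (-5.01), was not tested there. Btc likewise entered the 2 comparisons in which it was called through D21 whole cells only. None of 6 was called by limma between D21 and NP depleted cells, where 5.44% of 13406 genes were higher and 2.06% lower. At an unadjusted p below 0.05, 2 of the 6 (Areg and Erbb3) passed in limma and 1 did in the t-test of the study's methods. Of 7 transcripts, 1 differed in its change with depletion, against 2.44% of 14565 genes with the higher and 4.99% with the lower value in D21 rats. The median log2 difference of the tested family members was 0.85, -0.85, -1.87, -0.18 and 0.98 in these comparisons in turn, beside -0.08, -0.06, -0.04, 0.02 and -0.05 for all genes. The NP comparison and the D21 comparison share no rats with each other, but each shares its whole arrays with the comparison of D21 with NP whole cells.

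With each array scaled to the percentile of its detected probes instead, the median of all genes moved by 0.19 in whole against depleted cells of D21 rats. The share of all calls that were higher in whole cells then rose from 56.5% to 70.4%. Between D21 and NP depleted cells it moved the median by -0.16 and the share of calls that were higher from 72.5% to 57.6%. Under this scaling Hbegf and Areg were still called lower in whole cells of D21 rats and Erbb2, at -1.04, was not.

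Other ligands and the remaining receptor were mostly dim. Nrg3, Nrg4 and Erbb4 were not well above background on any array, and Epgn had no probe by name. Nrg1, a neuregulin that binds Erbb3, was tested and not called. Nrg2, another neuregulin, was 0.21, -3.43 and 0.26 in NP whole rats 8, 9 and 10 and -5.07, -4.30 and -4.99 in NP depleted rats 5, 6 and 7, or 13.9-fold higher in whole cells (limma adjusted p = 0.0077). Its level in NP whole rat 9 was much lower than in the other 2.

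Of 7 tested genes for proteases that release the ligands and their regulators, 2 were higher and none lower in D21 than in NP whole cells. These were Adam15 (3.14-fold, limma adjusted p = 0.0093) and Adam8 (4.19-fold, limma adjusted p = 0.011), beside 5.39% of all genes higher there. Adam17, the protease best known for releasing Areg, Hbegf and Tgfa, was called in no comparison of the reported fit. Without the depleted arrays of slide 3 it was 2.26-fold higher in whole than in depleted cells of D21 rats and 2.59-fold lower in D21 than in NP depleted cells. In that fit 5 of 7 genes of the list differed in their change with depletion in place of 2, with no share of all genes beside it. In D21 rats, Adam10, which releases Egf and Btc, and Adam9 were 10.0-fold and 3.83-fold higher in whole than in depleted cells, and Rhbdf1, a partner of Adam17, was 3.02-fold lower. Adam10 was -1.31, -1.28 and -1.32 in D21 whole rats 5, 6 and 7 and -4.89, -6.80 and -2.18 in D21 depleted rats 1, 2 and 4, so that rat 4 stood apart as for Btc, and rat 2 was not well above background. Without the depleted arrays of slide 3 Adam10 was 23.3-fold and Adam9 7.10-fold higher in whole cells. The call of Adam9 was lost without any 1 of the 5 D21 rats other than depleted rat 4 (1.33 to 2.02 on the log2 scale). The methods' t-test called none of the 7 in D21 rats, with 2 at an unadjusted p below 0.05. In NP rats Adam8, Rhbdf1 and Rhbdf2 were lower in whole cells, by 5.20-fold, 3.83-fold and 3.89-fold, beside 10.8% of all genes lower there. The change of Adam8 with depletion differed between D21 and NP rats by 2.42 on the log2 scale (limma adjusted p = 0.040) and that of Rhbdf2 by 1.53 (limma adjusted p = 0.055).

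Of the adaptors and kinases that carry the receptor signal, few were called. Src was the only 1 of 17 that was higher in D21 than in NP whole cells (2.02-fold), and Hras was the only 1 lower in whole than in depleted cells of D21 rats (2.34-fold), a call that was lost without any 1 of the 6 rats. Of all genes, 5.39% were higher in the first of these comparisons and 7.72% lower in the second. In NP rats 3 of 17 were lower in whole cells, Gab1, Src and Sos1, beside 10.8% of all genes. With 1 rat left out, the call of Sos1 there was kept in 1 of 6 fits and that of Src in 4 of 6. The call of Src between D21 and NP whole cells was also kept in 4 of 6. Gab1, a docking protein of Egfr, was not well above background in NP whole cells, and its level in NP depleted cells was at least 3.04-fold higher (limma adjusted p = 9.4e-05). When depleted cells of D21 and NP rats were compared, 3 of 17 were lower in D21 rats, Gab1 (3.41-fold), Plcg1 (3.00-fold) and Sos1 (2.33-fold), and none was higher. Of all genes, 2.06% were lower there and 5.44% higher. The call of Sos1 between depleted cells was kept in 2 of 6 fits with 1 rat left out. Without the depleted arrays of slide 3, 6 of 18 were called in D21 rats and 7 of 18 between depleted cells, with Plcg1 5.05-fold lower. No share of all genes in that fit stands beside these 2 counts. Of 18 tested, 3 differed in their change with depletion, Gab1 by 3.30, Src by 1.38 and Sos1 by 1.71 on the log2 scale. All had the higher value in D21 rats, beside 2.44% of all genes. With 1 rat left out, that of Sos1 was called in 9 of 12 fits.

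**Figure D3:**
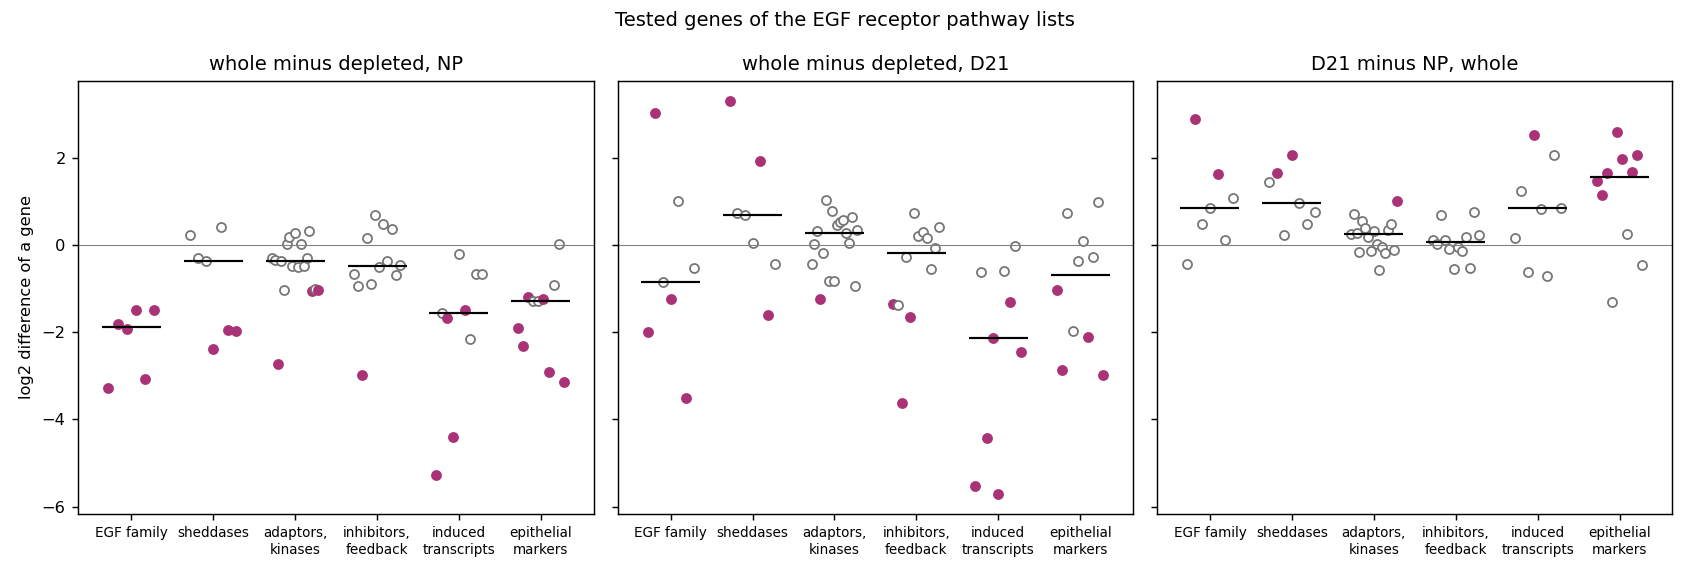
Log2 differences of tested genes in 6 lists of the EGF receptor pathway and of epithelial markers, in 3 comparisons. Each point is 1 gene, filled purple where called, and lines are medians of the tested genes of a list. Called transcripts of the list induced by receptor signalling lay below 0 in both panels of whole minus depleted, and Fosl1, drawn lowest in D21 rats, was not well above background in their whole cells.

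Of the pathway lists, the transcripts that EGF receptor signalling is known to induce held the largest single differences between whole and depleted cells. They include early genes that many other stimuli, stress of the cells among them, also induce. In D21 rats 6 of 9 were lower in whole cells and none higher, with a median of -2.13, and in NP rats 4 of 9 were lower and none higher, with a median of -1.55. Of all genes, 7.72% were lower in whole cells of D21 rats and 10.8% in those of NP rats. Atf3, a stress-induced factor, was -0.89, -1.51 and -1.96 in D21 whole rats 5, 6 and 7 and 4.70, 4.08 and 3.47 in D21 depleted rats 1, 2 and 4, or 46.4-fold lower in whole cells. In NP rats it was 38.6-fold lower. Fosl1, an AP-1 subunit, was not well above background in D21 whole cells and at least 11.9-fold higher in D21 depleted cells (limma adjusted p = 9.3e-06).

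Fos and Egr1 were lower in whole cells in both kinds of rats, but by different amounts. Fos was -0.81, -0.85 and 0.05 in NP whole rats 8, 9 and 10 and 1.30, 2.30 and 2.38 in D21 whole rats 5, 6 and 7, or 5.78-fold higher in D21 whole cells (limma adjusted p = 0.0062). It was 21.1-fold lower in whole than in depleted cells of NP rats and 4.38-fold lower in those of D21 rats, and the difference of these changes was 2.26 on the log2 scale (limma adjusted p = 0.055). Egr1 was 3.17-fold lower in whole cells of NP rats and 21.4-fold lower in those of D21 rats. Myc was 2.79-fold and 2.48-fold lower. Of 10 tested in depleted cells, 4 were higher in D21 than in NP rats, Fosl1 (5.31-fold), Egr1 (4.42-fold), Plaur (6.27-fold) and Ier3 (2.34-fold), and none was lower. The share of all genes called higher there was 5.44%.

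Among feedback inhibitors of the receptors few were called. Dusp5, a phosphatase of ERK, was 12.2-fold lower in whole than in depleted cells of D21 rats and 7.93-fold lower in those of NP rats (limma adjusted p = 0.0014 in both). Errfi1, which blocks the kinase of Egfr, and Cbl, which marks the receptor for breakdown, were lower in whole cells of D21 rats by 3.14-fold and 2.55-fold. The call of Cbl was kept in 2 of 6 fits with 1 rat left out. These were 3 of 12 tested in D21 rats, beside 7.72% of all genes lower there, and 1 of 12 in NP rats, beside 10.8%. The methods' t-test called 1 and 0 of the 12 in these comparisons. In the other 3 comparisons limma called none of 12 in the reported fit. Without the depleted arrays of slide 3 it called 4 of 15 between depleted cells and 3 of 15 for the difference of the changes, with no share of all genes beside them. At an unadjusted p below 0.05 limma passed 0 of 12 between D21 and NP whole cells, 3 between the depleted cells and 0 for the difference of the changes, and the methods' t-test called none of 12 in the first 2 of these.

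For each tested member the genes with the most similar profile were sought among 8228 named genes detected above background in all 12 rats. The correlations are descriptions, since the 12 arrays share groups, slides and scaling. Nearest to Hbegf were Hspa1b (Pearson r = 0.965), which encodes a heat-shock protein, Nr4a1 (0.963), an early response gene, and Ppp1r15a (0.958), a gene of the stress response. Nearest to Areg were Ttc39c (0.975), Cd44 (0.970), which encodes the hyaluronan receptor, and Hnrnpl (0.969). Btc was nearest to Chpt1 (0.972), Tc2n (0.951) and Abhd17b (0.948), and Tgfa to Rhod (0.950), Slc27a4 (0.937) and Ecm1 (0.929). Among the receptors, Egfr was nearest to Ubqln4 (0.959), Dis3l2 (0.950) and Zbtb21 (0.949), and Erbb2 to Afdn (0.979), Tmem53 (0.974) and Ppdpf (0.974). Erbb3 had the lowest of these first correlations, with Nup98 (0.932), Mindy1 (0.931) and Atp10d (0.929).

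**Figure D4:**
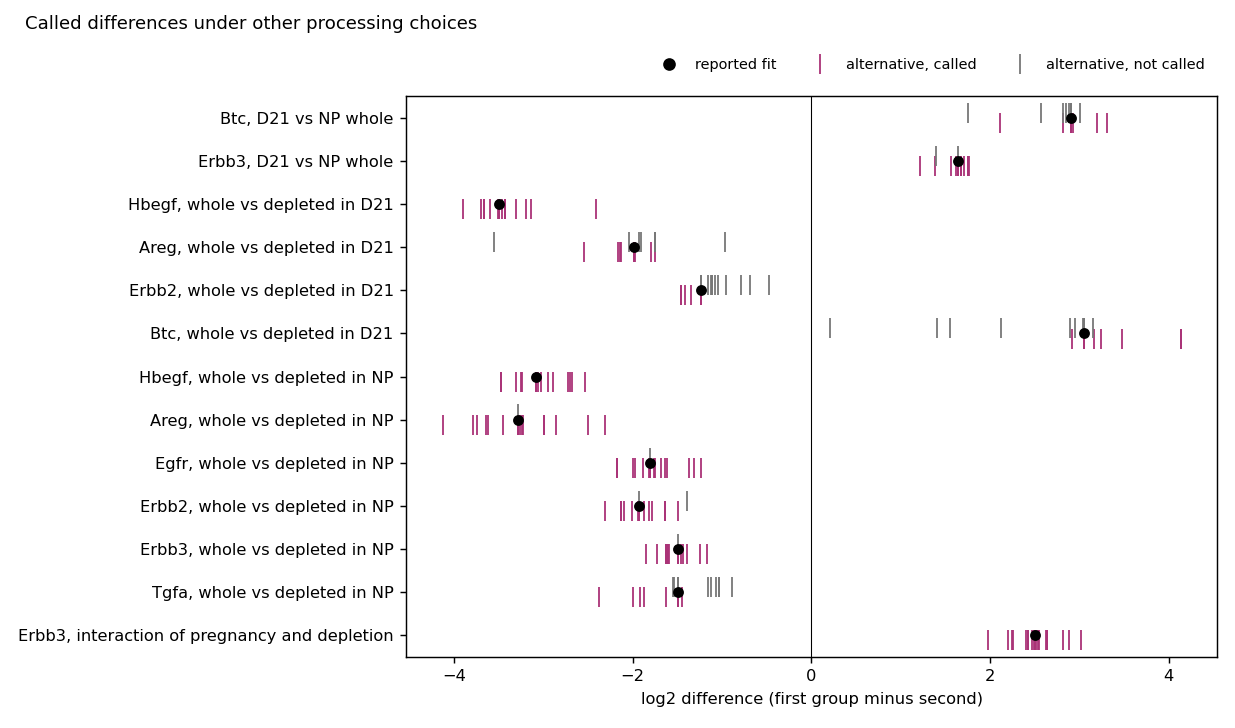
Log2 differences of the 13 called results of EGF family members in the reported fit (black points) and under every alternative run (ticks), purple where still called and grey where not. The ticks of Hbegf and of the difference of the changes of Erbb3 were all purple, and those of Btc in D21 rats reached from 0.21 to 4.13.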

How the data were processed

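Each array held RNA of 1 rat, grouped by the labels. The authors deposited spot intensity values written by Agilent Feature Extraction (background subtracted, small signals replaced by a surrogate, no scaling between arrays) and a table of ratio values, each intensity over the 75th percentile of that array's probes. The scale of that table is not stated in it and was found by setting it against the intensities (r of at least 0.9999, medians of 0.08 to 0.12).

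Control and outlier spots were left out (294 to 648 outlier spots an array), spots of a probe averaged, and the log2 of the array's 75th percentile subtracted. Accessions without version matched RefSeq genes for 17328 of 30367 probes (57.1%). The others kept the name printed in the array files. The brightest probe stood for each of 3397 genes with several. Groups were compared with limma 3.58.1 run in R 4.3.3 (all 12 arrays, no covariates, lmFit then eBayes), and tables and plots made in Python 3.11.15. The steps were tested on simulated data. With 3 arrays a group, the number of arrays limits the precision.

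The family members, the gene lists and the tests were chosen with earlier results of these data known. Named genes were all 9 members, up to 4 called genes with the smallest p for each pathway list and comparison, and the 3 genes nearest in profile to each member. Myc in D21 rats, Adam17, Nrg1, the dim neuregulins, Cd68, Adgre1, Mrc1, Fcgr3a, C1qb, Cd14, Kit, Csf3r and the epithelial markers were named in addition, after their values were seen.

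Alternatives were the Welch test of the methods, an adjusted p, only the arrays compared, normexp, quantile and detected-probe scaling, filters, probe averaging, array weights, slide and scan day as blocks, the authors' ratio table and each rat left out. Leaving out both depleted arrays of slide 3 was added after the data were seen.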

Additional observations from a re-analysis of the deposited data

Results flagged for a closer look

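For 5 transcripts of the family and its pathway, the change between whole and depleted cells differed between D21 and NP rats in the interaction test of limma, with a call and an adjusted p below 0.05. The value is the whole minus depleted log2 difference of D21 rats less that of NP rats. It was 2.50 for Erbb3 (limma adjusted p = 0.026), 2.42 for Adam8 (0.040) and 3.30 for Gab1 (0.0068), and it was -2.75 for Egr1 (0.018) and -3.27 for Fosl1 (0.011). The 3 Gab1 arrays of NP whole cells and the 6 Fosl1 arrays of whole cells were not well above background, so the sizes of those values are not firm. No group had more than 3 rats, so single samples were not tested as outliers.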

How the results depend on the processing

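No paired analysis was possible because the groups compared share no rat, and equal rat numbers in the labels occur only between D21 whole and NP depleted cells, which were not compared.

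Between D21 and NP whole cells, 2 members were called in the reported fit. The methods' t-test called 0 (2 at an unadjusted p below 0.05), and 1 was called with an adjusted p, normexp, the detected-probe percentile, the filter on every array or slide as a block. In whole against depleted cells, the 4 called in D21 rats became 2 with the t-test or scan day as a block and 1 with normexp or slide as a block, and the 6 called in NP rats became 1 with the t-test. In depleted cells of D21 and NP rats, 0 became 1 with only the arrays compared, the detected-probe percentile, no filter or the authors' values, and 2 with array weights or without the depleted arrays of slide 3. For the difference of the changes, 1 became 2 with no filter and 3 without the depleted arrays of slide 3. Leaving out 1 rat gave 1 to 2, 1 to 4, 5 to 6, 0 to 1 and 1 to 3 members in these 5 comparisons in turn. The lowest counts came without NP whole rat 8 or any D21 whole rat in the first, and without D21 whole rat 5 or D21 depleted rat 2 in D21 rats, where 2 remained without D21 whole rat 6 or 7 or D21 depleted rat 1. The count of 3 came without NP depleted rat 7.

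No called difference changed sign, while 17 values that were not called did. Between D21 and NP whole cells, Areg was 0.0297 with normexp and -1.22 to 0.0144 with a rat left out. Hbegf was -0.27 with array weights, -0.35 with slide as a block and -0.28 to 0.48 with a rat left out. In the depleted cells, Tgfa was -0.0511 with the detected-probe percentile, -0.0932 with the mean of all probes and -0.31 to 0.57 with a rat left out. There Erbb2 was -0.11 with normexp, -0.018 with quantile normalization, -0.0046 with the detected-probe percentile, -0.0242 with the mean of all probes and -0.046 to 0.45 with a rat left out. The difference of the changes of Hbegf was 0.12 with normexp and 0.0375 without the depleted arrays of slide 3. Over members and comparisons, 409 of 465 values under other settings and 207 of 240 with a rat left out kept direction and call. The cause of these shifts was not tested. Whole and depleted cells share slide 3 only, with 2 NP whole arrays and no D21 whole array, so slide as a block leaves few arrays for the comparison. Ereg, Egf and the Btc level in NP depleted cells are limited by signal over background.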
